A study of Mus musculus with 9 samples.

Results

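The transcripts of 4 receptors of lymphocyte homing, egress or survival were followed in activated CD4+ T cells cultured with acacetin, a plant flavone. They are Ccr7, S1pr1, S1pr4 and Il7r, and they were taken as the rows of the deposited count matrix that carry these symbols, 4 of 25757 entries. None of these symbols occurs more than once, and all 4 genes passed the filter on low counts, which left 12185 genes. The cells were wild-type mouse CD4+ T cells, isolated as naive cells from spleens and lymph nodes and stimulated with plate-bound antibodies to CD3 and CD28. Acacetin, dissolved in DMSO, was added at 0, 5 or 10 μM when the cultures began, and RNA was taken on day 3 from 3 biological replicates of each concentration, 9 libraries in all. The antibodies were common to all groups, so the libraries at 0 μM are activated cells and not resting ones. No label says if separate mice gave the replicates, so the p-values take only the variation among these cultures into account. In the GENCODE M21 annotation Ccr7 lies on chromosome 11, S1pr1 on chromosome 3, S1pr4 on chromosome 10 and Il7r on chromosome 15.

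CCR7 is the chemokine receptor with which naive and central memory T cells follow CCL19 and CCL21 into the T cell zone of lymph nodes. S1PR1 is a receptor for sphingosine-1-phosphate (S1P), a lipid that is abundant in blood and lymph, and T cells need it to leave lymphoid organs. S1PR4 is another S1P receptor, found mainly on lymphoid and myeloid cells. IL7R, the alpha chain of the interleukin 7 receptor, carries the survival signal that resting T cells receive from lymph node stroma. As background, stimulated T cells lower Ccr7, S1pr1 and Il7r, and the transcription factors FOXO1 and KLF2 maintain these genes in resting cells. The files give no answer on resting cells, since none were sequenced here.

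The total count per library was 19972618 to 23873709 at 0 μM, 19664981 to 24410715 at 5 μM and 20022480 to 22210543 at 10 μM. The label was checked first. All 10 listed CD4 T cell markers exceeded 10 CPM (counts per 1000000 counts of a library, scaled with TMM factors) in every library, with sums of 4027 to 4060, 3940 to 3997 and 3866 to 3991 CPM at 0, 5 and 10 μM. All 8 B cell markers were under 1 CPM in every library, as were 6 of 7 dendritic cell markers, of which Clec9a and Siglech were at 0. The 7 endothelial markers, from a cell type that carries S1pr1, summed to 9.20 to 12.04, 7.44 to 9.11 and 7.59 to 10.3 CPM, with Egfl7 as the highest. Markers of other blood cells were low but not equal across concentrations. The 8 macrophage and monocyte markers, 5 of them under 1 CPM everywhere, summed to 2.36 to 3.98, 7.54 to 7.97 and 8.39 to 21.3 CPM at 0, 5 and 10 μM. The 6 NK cell markers, 5 of them under 1 CPM everywhere and Klra8 at 0, summed to 3.73 to 4.56, 6.61 to 7.44 and 6.80 to 7.28 CPM, almost all of it Eomes. The 8 lung epithelial markers summed to 25.04 to 33.0, 33.9 to 35.5 and 38.9 to 114 CPM. Most of this sum, outside 10 μM replicate 1, was Ager, with a mean of 24.15, 28.5 and 36.0 CPM at 0, 5 and 10 μM. The part of these transcripts in the results below was not tested. The markers of CD8 T cells and of neutrophils summed to at most 9.13 and 2.48 CPM in any library, and the 2 of 5 gamma-delta T cell markers found in the table to at most 4.87 CPM. One library at each acacetin concentration stood apart. In 10 μM replicate 1, 8 lung epithelial transcripts summed to 114 CPM against at most 39.3 CPM elsewhere, 5 red blood cell transcripts to 23.2 against at most 2.11 CPM, and 8 macrophage transcripts to 21.3 against at most 11.3 CPM. In 5 μM replicate 2, 8 liver transcripts summed to 25.65 CPM against at most 2.38 CPM elsewhere. For the 4 receptors, values without these libraries are given beside those with them, and for the lists of related genes the counts at 5 and 10 μM against 0 μM are.

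Transcripts of Ccr7, S1pr1 and Il7r rose at both concentrations of acacetin, while those of S1pr4 did not pass the test at either. At 10 μM, S1pr1 was 2.00-fold, Il7r 1.76-fold and Ccr7 1.62-fold of the level at 0 μM. At 5 μM, the folds were 1.60 for S1pr1, 1.45 for Il7r and 1.27 for Ccr7. In total RNA from a culture, a larger share of cells with a receptor and more of its RNA per cell cannot be told apart. The same holds below for every gene.

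**Figure D1:**
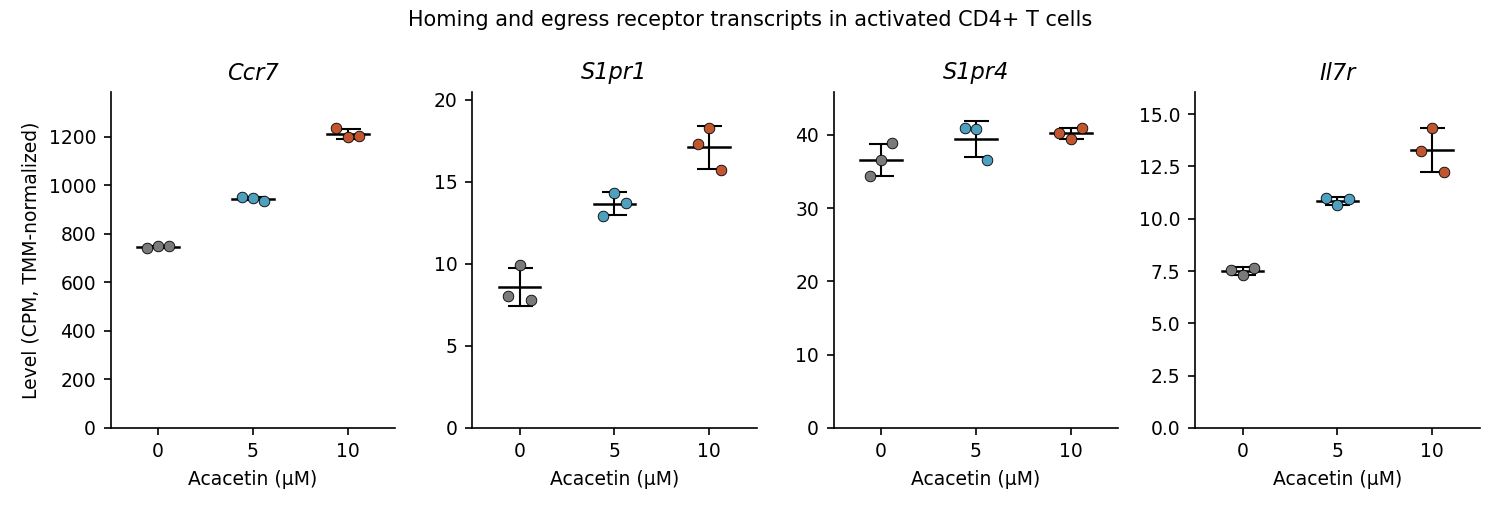
Level of each receptor transcript in CPM (y axis, from 0) at 0, 5 and 10 μM acacetin (x axis). Points are the 9 libraries, horizontal lines the mean and bars the SD of 3 replicates. The 3 points of each concentration lie apart from those of the other concentrations for Ccr7, S1pr1 and Il7r, while for S1pr4 those at 5 μM overlap with both other groups.

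Ccr7 was by far the most abundant of the 4. Its level was 741.5, 750.7 and 748 CPM in the replicates at 0 μM, 950.5, 948 and 938 CPM at 5 μM, and 1237, 1199 and 1203 CPM at 10 μM. The 3 concentrations did not overlap, and 10 μM replicate 1 was the highest library. At 0 μM 144 of the 12185 genes had a higher CPM than Ccr7, at 5 μM 109 and at 10 μM 83. Ccr7 changed by 0.34 on the log2 scale at 5 against 0 μM (SE 0.03, adjusted p = 9.5e-09, edgeR's quasi-likelihood test with Benjamini-Hochberg adjustment over all genes, as for every adjusted p here). Its change was 0.70 at 10 against 0 μM (SE 0.03, adjusted p = 1.8e-13) and 0.36 at 10 against 5 μM (SE 0.025, adjusted p = 1.2e-07). Each of the 9 possible pairs of a 10 μM and a 0 μM library gave a ratio between 1.60 and 1.67, so the rise exceeded the spread between replicates. Without 5 μM replicate 2, the log2 fold change at 5 against 0 μM was 0.34 (adjusted p = 2.4e-07), and without 10 μM replicate 1 that at 10 against 0 μM was 0.69 (adjusted p = 1.5e-13). With 14745 to 26657 counts per library, counting error alone gives a coefficient of variation of 0.63 to 0.79% for this gene, and the observed one was 0.64, 0.73 and 1.70% at 0, 5 and 10 μM.

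S1pr1, the egress receptor, had the highest fold change of the 4 against 0 μM. Its level was 8.05, 9.90 and 7.78 CPM at 0 μM, 12.9, 14.3 and 13.7 CPM at 5 μM, and 17.3, 18.3 and 15.7 CPM at 10 μM. Again no library of one concentration reached into another group, although 0 μM replicate 2 lay above the other 0 μM libraries. S1pr1 rose by 0.68 on the log2 scale at 5 against 0 μM (SE 0.10, 95% interval 0.47 to 0.88, adjusted p = 3.1e-05) and by 1.00 at 10 against 0 μM (SE 0.10, 95% interval 0.798 to 1.197, adjusted p = 8.2e-08). Of the 12185 genes, 1.97% had a higher fold change at 5 μM and 1.32% at 10 μM. The library with lung and blood transcripts lay between the other 10 μM libraries, and without it the log2 fold change at 10 against 0 μM was 0.99 (adjusted p = 5.2e-07). The library with liver transcripts was the highest at 5 μM, and without it the value at 5 against 0 μM was 0.64 (adjusted p = 3.6e-04). The gene had 160 to 368 counts per library, so that its values are much less precise than those of Ccr7. The coefficient of variation was 13.5, 5.08 and 7.57% at 0, 5 and 10 μM, where counting error alone gives 7.43, 5.79 and 5.32%.

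Il7r followed the same course at a similar level. Its level was 7.54, 7.32 and 7.65 CPM at 0 μM, 10.97, 10.65 and 10.9 CPM at 5 μM, and 13.25, 14.3 and 12.2 CPM at 10 μM. The groups were separate here too, and the 0 μM and 5 μM replicates lay closer together than counting error alone would give, with a coefficient of variation of 2.26 and 1.63% against 7.92 and 6.51%. Il7r rose by 0.53 on the log2 scale at 5 against 0 μM (SE 0.09, 95% interval 0.34 to 0.72, adjusted p = 1.7e-04) and by 0.82 at 10 against 0 μM (SE 0.09, 95% interval 0.63 to 1.01, adjusted p = 4.1e-07). Of all genes tested, 3.55% had a higher fold change at 5 μM and 2.33% at 10 μM. Without 10 μM replicate 1 the value at 10 against 0 μM was 0.82 (adjusted p = 2.3e-06), and without 5 μM replicate 2 that at 5 against 0 μM was 0.55 (adjusted p = 8.1e-04).

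S1pr4 stayed near its level without acacetin. It had 34.45, 36.5 and 38.8 CPM at 0 μM, 40.9, 40.8 and 36.6 CPM at 5 μM, and 40.2, 39.5 and 40.9 CPM at 10 μM. The 5 μM group overlapped with both others, and the 10 μM group lay just above the highest 0 μM library. On the log2 scale the difference was 0.11 at 5 against 0 μM (SE 0.06, adjusted p = 0.15) and 0.13 at 10 against 0 μM (SE 0.06, unadjusted p = 0.029, adjusted p = 0.059). The 95% interval at 10 against 0 μM ran from 0.02 to 0.25 on the log2 scale, or from 1.01-fold to 1.19-fold, so a rise up to that size is compatible with these libraries. This gene sat close to the threshold: the call at 10 against 0 μM was made without 0 μM replicate 3 (0.18, adjusted p = 0.028), without 5 μM replicate 3 (0.13, adjusted p = 0.043), with library totals in place of TMM factors (0.14, adjusted p = 0.045) and with counts thinned to the smallest library (0.14, adjusted p = 0.039). At 5 against 0 μM it was made without 5 μM replicate 3 (0.16, adjusted p = 0.049). Without 5 μM replicate 2 the value at 5 against 0 μM was 0.08 (adjusted p = 0.38), and without 10 μM replicate 1 that at 10 against 0 μM was 0.13 (adjusted p = 0.097). Over all 20 alternatives the adjusted p at 10 against 0 μM ran from 0.028 to 0.23.

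Of the 4 receptors, 3 were called higher and 0 lower at 5 against 0 μM, where 16.3% of all genes tested were called higher and 16.8% lower. At 10 against 0 μM, 3 were called higher and 0 lower, against 23.8% of all genes called higher and 23.6% lower. With a fold change over 1.5 as a second threshold, S1pr1 alone qualified at 5 μM, against 1.62% of all genes, and Ccr7, S1pr1 and Il7r at 10 μM, against 4.14%. The median log2 fold change of the 4 was 0.44 at 5 μM and 0.76 at 10 μM, where that of all genes was 0.00 at both. The groups did not overlap, with acacetin higher, for 3 of the 4 genes at 5 μM (23% of all genes) and for all 4 at 10 μM (27.1%). Both comparisons share the 0 μM libraries, so they are not independent of each other.

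**Figure D2:**
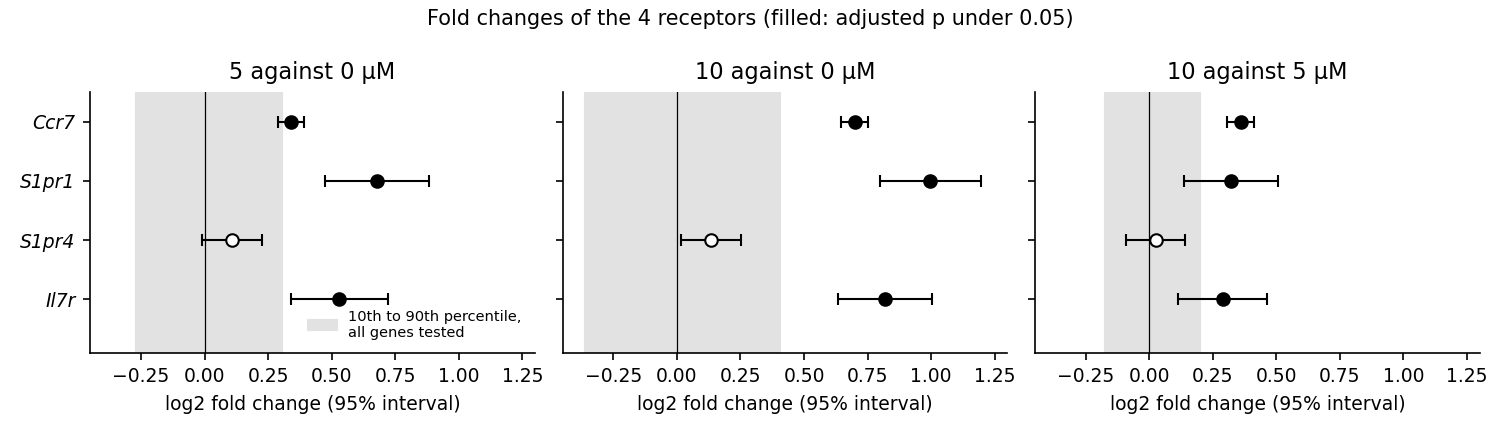
The log2 fold change of each receptor (x axis) with its 95% interval, for 5 against 0, 10 against 0 and 10 against 5 μM. Filled points have an adjusted p under 0.05, and the grey band spans the 10th to 90th percentile of all 12185 genes, -0.27 to 0.30, -0.36 to 0.41 and -0.17 to 0.20. Ccr7, S1pr1 and Il7r lie to the right of the band in each comparison and S1pr4 inside it.

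The 2 concentrations were also set against each other. At 10 against 5 μM, Ccr7, S1pr1 and Il7r were called higher, 3 of 4 receptors, where 4.92% of all genes were called higher and 4.09% lower. For these 3 genes the 10 μM libraries did not overlap with the 5 μM ones, as for 13.3% of all genes. The difference on the log2 scale was 0.32 for S1pr1 (SE 0.09, adjusted p = 0.028). For Il7r it was 0.29 (SE 0.08, adjusted p = 0.036), and for S1pr4 0.03 (SE 0.06, 95% interval -0.09 to 0.14, adjusted p = 0.83). The call for Ccr7 held under all 20 alternatives, with an adjusted p of at most 7.5e-06. Those for S1pr1 and Il7r were less certain. With DESeq2 on all libraries the adjusted p was 0.063 for S1pr1 and 0.13 for Il7r. With DESeq2 on the 2 groups alone it was 0.081 for S1pr1 and 0.21 for Il7r. Without both libraries with transcripts of other tissues it was 0.089 for S1pr1 and 0.16 for Il7r, and with the replicate number as a block that of Il7r was 0.053. With edgeR on the 2 groups alone Il7r had 0.058. S1pr1 lost the call without 5 μM replicate 1 (adjusted p = 0.11), 5 μM replicate 3 (0.082), 10 μM replicate 1 (0.069) or 10 μM replicate 2 (0.078). Il7r lost it without 5 μM replicate 1 (adjusted p = 0.083), 2 (0.11) or 3 (0.088) and without 10 μM replicate 1 (0.074) or 2 (0.11). Under all 20 alternatives, with or without the call, the direction stayed the same, between 0.27 and 0.38 for S1pr1 and between 0.23 and 0.35 for Il7r on the log2 scale.

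**Figure D3:**
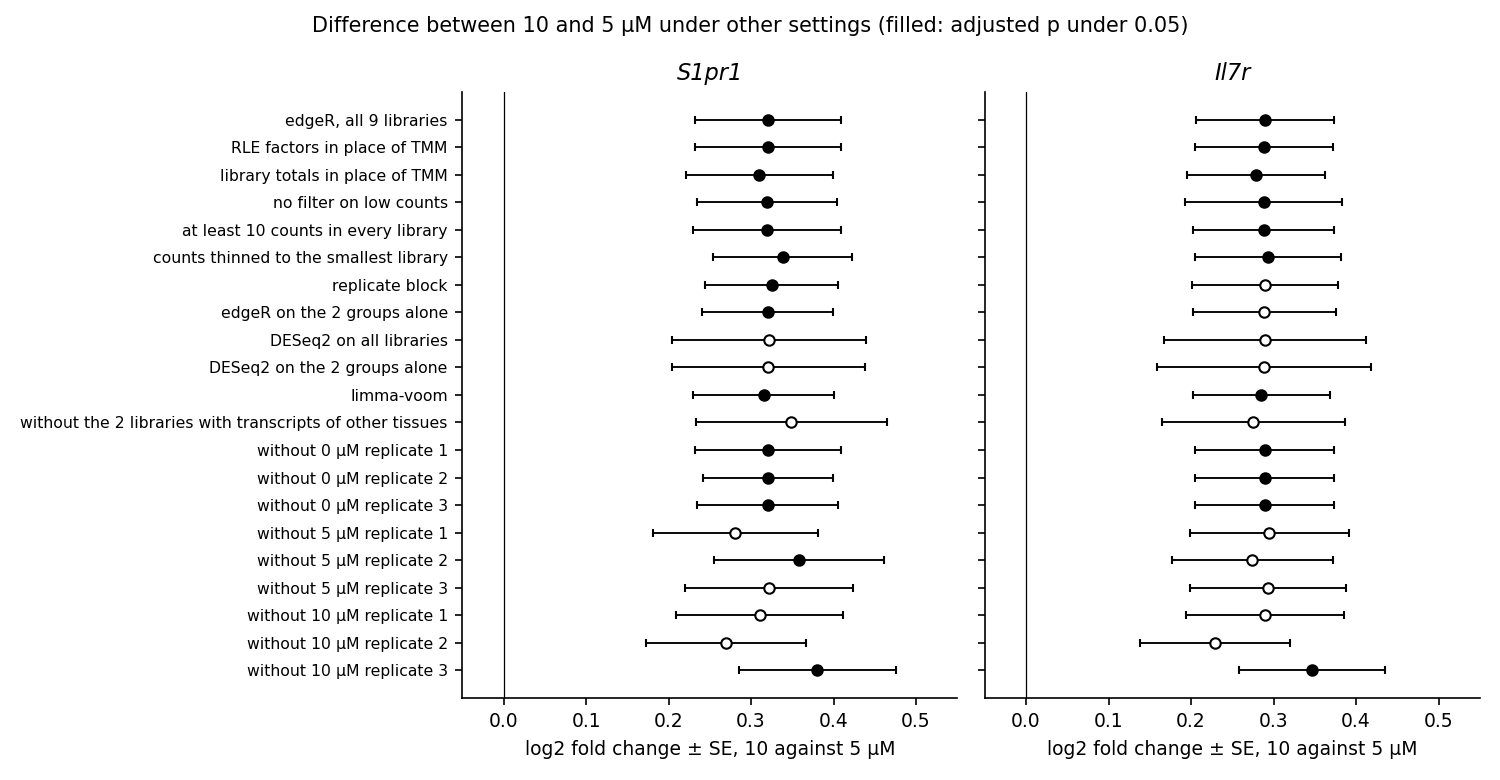
The log2 fold change at 10 against 5 μM with its SE (x axis) for S1pr1 and Il7r under edgeR on all 9 libraries and 20 alternatives (rows). Filled points have an adjusted p under 0.05. Every value lies above 0, and 13 of the 20 alternatives keep the call for S1pr1 and 10 for Il7r.

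The share of the change that was present at 5 μM was described by the ratio of both log2 fold changes. At 5 μM, Ccr7 had 48.7%, Il7r 64.7% and S1pr1 67.8% of the log2 fold change seen at 10 μM. A test of 5 μM against the midpoint of 0 and 10 μM on the log2 scale gave -0.01 for Ccr7 (95% interval -0.05 to 0.04, adjusted p = 0.86), 0.12 for Il7r (-0.04 to 0.28, adjusted p = 0.43), 0.18 for S1pr1 (0.01 to 0.35, unadjusted p = 0.039, adjusted p = 0.24) and 0.04 for S1pr4 (adjusted p = 0.71). Thus 0 of the 4 receptors were called by edgeR, 1 of them, S1pr1, had an unadjusted p under 0.05, and limma-voom also called 0, where 3.83% of all genes were called. DESeq2 on all libraries gave no adjusted p for S1pr1 and Il7r here, and did not call Ccr7 or S1pr4.

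The levels of the genes were compared after division by the length of their annotated exons. Ccr7 stood at 378 ± 2.41, 478 ± 3.47 and 613 ± 10.4 CPM per kb at 0, 5 and 10 μM (SD, n = 3). S1pr4 followed at 15.3 ± 0.919, 16.5 ± 1.03 and 16.9 ± 0.309, then S1pr1 at 2.82 ± 0.380, 4.48 ± 0.228 and 5.61 ± 0.425, and Il7r at 1.61 ± 0.0364, 2.33 ± 0.0379 and 2.85 ± 0.227 CPM per kb. No neighbours in this order overlapped at any concentration, and the order was the same with the length of the longest coding transcript. Of the summed CPM of the 4 genes, Ccr7 made up 93.4% at 0 μM, 93.7% at 5 μM and 94.5% at 10 μM. Between the 2 S1P receptors the balance shifted: there were 20.02 to 27.1 CPM of S1pr1 per 100 CPM of S1pr4 at 0 μM, 31.6 to 37.5 at 5 μM and 38.4 to 46.3 at 10 μM. These ranges do not overlap, but 3 libraries against 3 allow no exact permutation p under 0.1. The ratio of Il7r to S1pr1 overlapped between all concentrations, at 73.9 to 98.4, 74.4 to 84.9 and 76.5 to 78.5 CPM of Il7r per 100 CPM of S1pr1.

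Of the promoters in the RefSeq table (GRCm38.p6, 250 bases before to 50 bases after the annotated start), 2 of the 4 genes had an entry, Il7r and S1pr4. Both are shown for that reason. Il7r rose and S1pr4 did not pass the test, but a comparison of single genes cannot tie a motif to a change. Capitals mark the letters ACTTCCT, the reverse complement of the ETS motif AGGAAGT. ETS-family factors, among them GABP, are known to act on the Il7r promoter.
Il7r, chr15:9529827-9530126, minus strand: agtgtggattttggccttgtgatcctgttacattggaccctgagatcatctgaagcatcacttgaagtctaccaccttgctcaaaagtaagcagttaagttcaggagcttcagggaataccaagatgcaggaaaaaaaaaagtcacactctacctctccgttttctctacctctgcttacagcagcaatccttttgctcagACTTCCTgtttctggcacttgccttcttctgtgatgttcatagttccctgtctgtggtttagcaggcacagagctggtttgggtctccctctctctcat
S1pr4, chr10:81500088-81500387, minus strand: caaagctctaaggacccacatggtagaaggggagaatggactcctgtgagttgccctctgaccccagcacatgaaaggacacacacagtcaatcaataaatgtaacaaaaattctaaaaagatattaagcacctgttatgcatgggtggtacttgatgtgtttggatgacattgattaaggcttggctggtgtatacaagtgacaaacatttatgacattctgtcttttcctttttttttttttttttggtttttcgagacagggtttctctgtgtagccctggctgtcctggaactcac
Both strands were searched for 4 motifs. The ETS motif AGGAAGT begins 49 bases before the start of Il7r, is not in the S1pr4 window and occurs in 9.35% of all 32851 promoters of this length. The STAT motif TTCNNNGAA occurs once in the Il7r window, 142 bases before the start, and in 8.30% of all promoters. The KLF motif CACCC was found once in the S1pr4 window and not in that of Il7r (57.5% of all promoters), and the FOXO motif TGTTTAC in neither (3.65%). A match is only a match of letters, and the matches in the Il7r window do not overlap.

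Receptors of homing and egress outside the 4 were also listed. Of 13 such genes, 11 passed the filter, of which 4 were called higher and 2 lower at 5 against 0 μM and 6 higher and 2 lower at 10 against 0 μM, with a median log2 fold change of 0.11 and 0.14. Without both libraries with transcripts of other tissues, the counts were 4 and 2 at 5 μM and 5 and 1 at 10 μM. Among all genes tested, 16.3% were called higher and 16.8% lower at 5 μM, and 23.8% and 23.6% at 10 μM. Cxcr4, the receptor for CXCL12, was at a low level, 2.95 ± 0.335, 5.58 ± 0.418 and 8.09 ± 0.652 CPM at 0, 5 and 10 μM (SD, n = 3). It had a log2 fold change of 0.91 at 5 μM (adjusted p = 5.6e-05) and 1.45 at 10 μM (adjusted p = 5.2e-08). Selplg, the ligand of P-selectin, rose by 0.11 (adjusted p = 0.0097) at 5 μM and 0.14 (adjusted p = 0.0013) at 10 μM on the log2 scale. Cxcr5, which leads T cells to B cell follicles, and the integrin gene Itgb7 went the other way. Cxcr5 was also at a low level, 3.29, 2.14 and 1.58 CPM on average at 0, 5 and 10 μM. It had -0.60 (adjusted p = 0.04) at 5 μM and -1.06 (adjusted p = 8.6e-04) at 10 μM. Itgb7 had -0.12 (adjusted p = 0.0074) at 5 μM and -0.09 (adjusted p = 0.039) at 10 μM. Without both libraries, the call of Itgb7 was kept at 5 μM and lost at 10 μM (adjusted p = 0.053). Among the other S1P receptors, S1pr2 had 12.3, 13.9 and 11.95 CPM on average at 0, 5 and 10 μM and was not called in any comparison, and S1pr3 and S1pr5 did not pass the filter, with at most 0.151 CPM in any library. The 5 ligands listed, Ccl19, Ccl21a, Cxcl12, Il7 and Tslp, did not pass it either. Ccl19 had 0 counts in all libraries, which allows up to 0.153 CPM in the smallest of them (3 counts, counting error only).

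**Figure D4:**
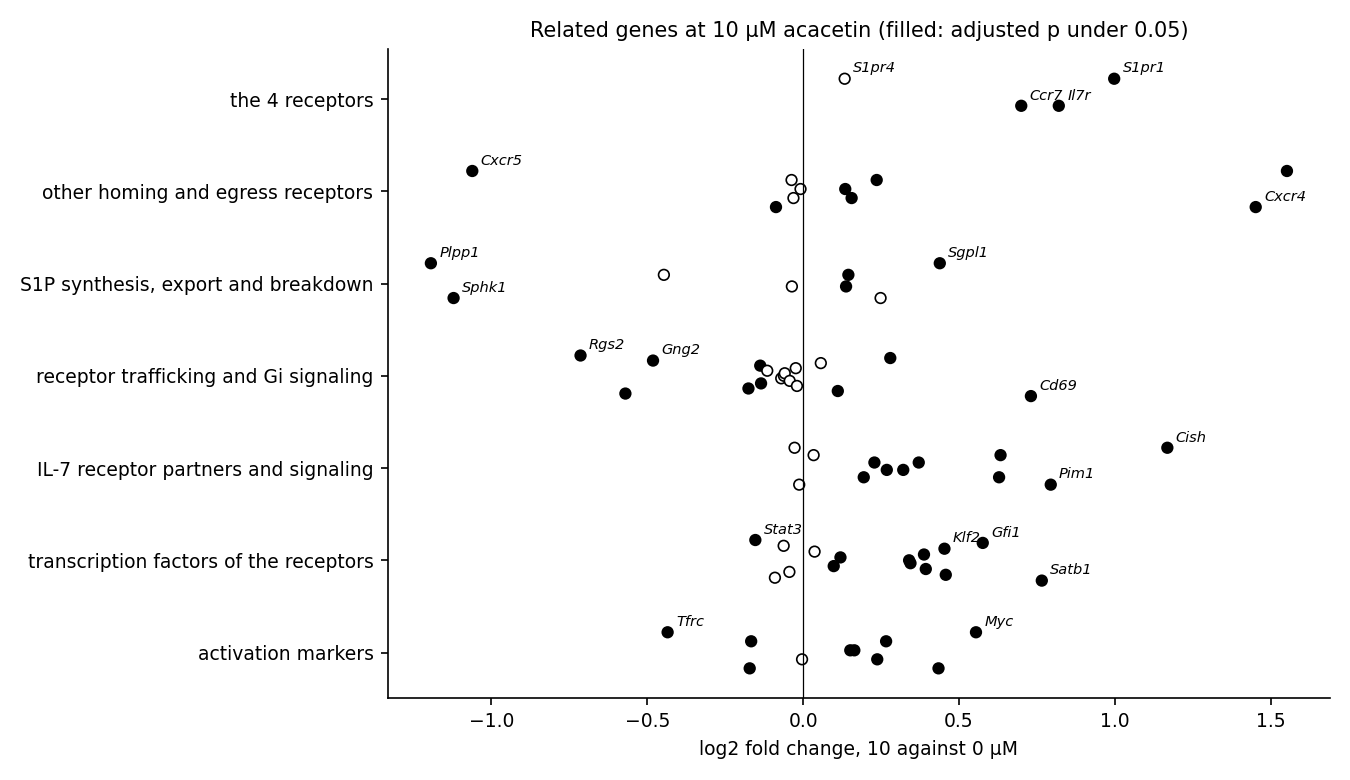
The log2 fold change at 10 against 0 μM (x axis) of the 4 receptors and of related genes that passed the filter, one row per list, with filled points at an adjusted p under 0.05 (vertical shifts within a row are for legibility). Cxcr4 lies on the side of Ccr7, S1pr1 and Il7r, Cxcr5 on the other, and the trafficking genes on both.

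The genes that make, export and degrade S1P changed little in the median, by 0.04 and 0.05 on the log2 scale at 5 and 10 μM. Of 10 listed, 8 were tested (Spns2 and Plpp3 were not), with 3 higher and 0 lower at 5 against 0 μM and 3 higher and 2 lower at 10 against 0 μM. The shares over all genes were 16.3% higher and 16.8% lower at 5 μM, and 23.8% and 23.6% at 10 μM. The S1P lyase gene Sgpl1 had 62.7 ± 2.10, 79.8 ± 3.07 and 85.0 ± 1.16 CPM at 0, 5 and 10 μM (SD, n = 3). Its log2 fold change was 0.35 at 5 μM (adjusted p = 3.1e-06) and 0.44 at 10 μM (adjusted p = 5.8e-08). The S1P phosphatase gene Sgpp1 rose by 0.15 at 5 μM (adjusted p = 0.013) and by 0.145 at 10 μM (adjusted p = 0.0096). The S1P kinases went different ways. Sphk2, the far more abundant one, had 42.1 ± 0.755, 46.1 ± 0.126 and 46.3 ± 2.18 CPM at 0, 5 and 10 μM (SD, n = 3), and a log2 fold change of 0.13 at 5 μM (adjusted p = 0.037) and 0.14 at 10 μM (adjusted p = 0.021). Both of these calls, and no others of the list against 0 μM, were lost without both libraries (adjusted p = 0.082 and 0.072). Sphk1, the other kinase, and the lipid phosphatase gene Plpp1 were both at a very low level and called lower at 10 μM. Sphk1 had 0.577 ± 0.0480 CPM at 10 μM and 1.27 ± 0.411 CPM at 0 μM (SD, n = 3 each, adjusted p = 0.014, edgeR). Plpp1 had 0.544 ± 0.176 CPM at 10 μM and 1.26 ± 0.194 CPM at 0 μM (adjusted p = 0.0083).

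Genes of receptor trafficking and of signaling through Gi proteins moved in both directions, with more called lower than higher. Of 17, 2 were higher and 6 lower at 5 against 0 μM and 3 higher and 6 lower at 10 against 0 μM, with a median of -0.05 and -0.06. Over all genes, 16.3% were called higher and 16.8% lower at 5 μM, and 23.8% and 23.6% at 10 μM. Cd69, whose protein binds S1PR1 and takes it from the cell surface, had 173 ± 5.98, 268 ± 4.55 and 287 ± 1.07 CPM at 0, 5 and 10 μM (SD, n = 3). So this partner of S1PR1 rose together with S1pr1, by 0.63 on the log2 scale at 5 μM (adjusted p = 5.2e-11), and by 0.73 at 10 μM (adjusted p = 1.1e-12). Dnm2, the dynamin gene of endocytosis, rose by 0.15 at 5 μM and 0.28 at 10 μM, and Grk2, a kinase that desensitizes such receptors, had 0.00 at 5 μM (adjusted p = 0.91) and 0.11 at 10 μM (adjusted p = 0.0018). Grk5, of the same kinase family, went the other way, with -0.46 at 5 μM (adjusted p = 6.5e-04) and -0.57 at 10 μM (adjusted p = 4.5e-05). The arrestin gene Arrb2 had -0.22 at 5 μM (adjusted p = 5.8e-05) and -0.14 at 10 μM (adjusted p = 0.0020). Rgs2, a regulator of G proteins, had -0.48 at 5 μM (adjusted p = 1.9e-06) and -0.71 at 10 μM (adjusted p = 5.5e-09). Gng2, a G protein gamma subunit, had -0.32 at 5 μM (adjusted p = 1.2e-04) and -0.48 at 10 μM (adjusted p = 7.0e-07).

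Of 12 genes of the IL-7 receptor's partners and signaling, 7 were higher and 0 lower at 5 against 0 μM and 9 higher and 0 lower at 10 against 0 μM. For all genes tested the shares were 16.3% higher and 16.8% lower at 5 μM, and 23.8% and 23.6% at 10 μM. The median log2 fold change of the 12 was 0.16 and 0.29. Cish, a feedback inhibitor induced by STAT5, was highest with 1.17 at 10 μM (adjusted p = 2.8e-15), and Pim1, a kinase gene, had 0.79 (adjusted p = 2.7e-12), Stat5a 0.63 (adjusted p = 7.9e-12) and Bcl2, a survival gene, 0.63 (adjusted p = 9.7e-10). These genes also respond to interleukin 2 and related cytokines. The partner chain gene Il2rg, named for its role and outside the rule, was not called (-0.03, adjusted p = 0.43), and Il7 itself did not pass the filter.

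Of 15 transcription factors known to act on the 4 genes or on naive T cells, 10 were higher and 1 lower at both concentrations against 0 μM, with a median of 0.22 and 0.34. Calls over all genes were 16.3% higher and 16.8% lower at 5 μM, and 23.8% and 23.6% at 10 μM. Klf2, which maintains S1pr1, had 45.4 ± 0.605, 59.0 ± 4.64 and 62.1 ± 2.96 CPM at 0, 5 and 10 μM (SD, n = 3). This was a log2 fold change of 0.38 at 5 μM (adjusted p = 2.8e-05) and 0.45 at 10 μM (adjusted p = 1.4e-06), while 10 against 5 μM gave 0.07 (adjusted p = 0.43). Foxo1 rose by 0.18 at 5 μM (adjusted p = 0.0017) and by 0.34 at 10 μM (adjusted p = 1.0e-06). The chromatin organizer Satb1 had 0.54 at 5 μM and 0.77 at 10 μM, Tcf7, a factor of naive cells, 0.22 and 0.46, and Ets1 0.27 and 0.34, all called. Gfi1, a known repressor of Il7r, rose as well, by 0.32 at 5 μM (adjusted p = 7.6e-06) and by 0.58 at 10 μM (adjusted p = 1.2e-09), and Stat3 was the one called lower (-0.15 at 10 μM, adjusted p = 1.1e-04). Gabpa, which encodes the DNA-binding subunit of GABP, was not called (-0.04, adjusted p = 0.47).

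For these lists of trafficking, IL-7 receptor and transcription factor genes, and for the activation markers below, the counts against 0 μM were the same without both libraries. Markers of T cell activation did not move as a block. Of 10, 5 were higher and 3 lower at 5 against 0 μM and 6 higher and 3 lower at 10 against 0 μM. Here too, 16.3% of all genes were called higher and 16.8% lower at 5 μM, and 23.8% and 23.6% at 10 μM. Myc, Irf4 and Il2ra, the gene of CD25, were higher at 10 μM, by 0.55, 0.43 and 0.24, whereas the transferrin receptor gene Tfrc was lower, at -0.43 (adjusted p = 2.4e-09). Tnfrsf9 and Cd40lg, genes of costimulation, were lower as well, each at -0.17. Cd44, an adhesion molecule of activated cells, was not called (-0.0036 at 10 μM, adjusted p = 0.93).

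Finally, the genes with the most similar course were sought by the root-mean-square difference of log2 CPM over the 9 libraries, each gene centred on its own mean, among 8930 other genes whose average log2 CPM reached 3. For Ccr7 they were Bcl2l1, Psd, Ier5, Zfp36l1 and Ddr1, at a difference of 0.04 to 0.05, and 149 genes lay within 0.1. For Il7r they were Nr1d2, Spry1, Satb1, Klhl24 and Il2, at 0.05 to 0.06, with 90 genes within 0.1. For S1pr1 they were Ikzf4, Jun, Cacnb3, Ypel2 and Tnfsf9, at 0.08 to 0.10, with 4 genes within 0.1. The nearest to S1pr4 were Cfap97, Tmem179b, Rpl15-ps3, Entpd6 and Erf, at 0.03 to 0.04. As many as 2560 genes lay within 0.1 of S1pr4, so its course was that of a large number of nearly flat genes, and Rpl15-ps3 is a pseudogene that may share reads with its parent. Among the 4 receptors, Ccr7 and Il7r were closest, at 0.10, followed by Il7r and S1pr1 at 0.14 and Ccr7 and S1pr1 at 0.18, while S1pr4 was 0.24 to 0.38 from the others. In this measure the size of a change counts as well as its course, and noise in genes with few counts, such as S1pr1, adds to the difference. Il7r had still fewer counts, 147 to 289 per library against 160 to 368, but its replicates at 0 and 5 μM lay closer together.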

How the data were processed

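The authors deposited estimated read counts (expected counts) for 25757 gene entries and 9 libraries. Libraries came from the TruSeq RNA kit, and the submitters' processing notes name the build GRCm39. Of tools, the methods name HISAT2 and StringTie for handling reads and DESeq2 for testing. How reads were counted, with which annotation and whether by strand, is not given in the sources used here. All 9 columns were matched to samples by title, and 0 were left unused. Since 24.1% of values were not whole, counts were rounded. Genes were kept by filterByExpr, scaled by TMM factors and tested with edgeR 4.0.16 (quasi-likelihood F-test, R 4.3.3, limma 3.58.1, DESeq2 1.42.0) in one fit of all 9 libraries, two-sided, with a call at an adjusted p under 0.05. The SE is the absolute log2 fold change divided by the square root of F. No 2 replicates were as close as counting error alone allows (chi-square per gene from 2.00 to 5.54). The steps were tested on simulated counts with known changes. Exon lengths came from GENCODE M21 on the preceding assembly, in which none of the 4 genes overlaps another gene, and CPM per kb takes these lengths as given.

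The genes, the lists and the rule for naming genes were chosen with earlier results of these data known. The rule names the 4 receptors, the 5 nearest genes of each, and per list up to 4 genes with the smallest adjusted p at 10 against 0 μM, called genes against the list's direction, Klf2 and genes that did not pass the filter. Some genes that this rule would name are not reported here. S1pr2, Sphk2, Grk5, Arrb2, Foxo1, Gabpa, Il2rg and Cd44 were named outside it, after their values were seen. Lists were counted and not tested as sets.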

Additional observations from a re-analysis of the deposited data

How the results depend on the processing

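Scaling was repeated with RLE factors and with library totals, and filtering with none and with a minimum of 10 counts per library. Counts were also thinned to equal depth, the replicate number was used as a block, and limma-voom, DESeq2, and edgeR or DESeq2 on just the 2 groups compared replaced the test. Libraries were left out singly, and 5 μM replicate 2 and 10 μM replicate 1 jointly. The comparisons of Ccr7, S1pr1 and Il7r with 0 μM kept their direction and their call under all 20, with an adjusted p of at most 0.0013. At 10 against 5 μM, 3 receptors were called, but 1 with DESeq2 on all libraries, on the 2 groups alone, and without both libraries, and 1 to 3 when leaving out one library. Over all genes, 1097 were called at 10 against 5 μM, 631 with DESeq2 on the 2 groups alone, 677 without both libraries and 617 to 1467 when leaving out one library. Against the midpoint, 467 genes were called, 853 with no filter, 184 without both libraries and 118 to 1073 when leaving out one library, while 0 receptors were called under the 17 that gave all 4 an adjusted p. DESeq2 on all libraries gave it for 2 of the 4. S1pr4 at 10 against 5 μM ranged between -0.0249 (without 5 μM replicate 3, adjusted p = 0.86) and 0.0511 when leaving out one library, and Ccr7 against the midpoint turned to 0.0052 with library totals (adjusted p = 0.92). Deviations of replicates that share a number had an r across genes of -0.03 to 0.09 over 9 pairs. For replicates with unlike numbers r was -0.09 to 0.04. The ranges overlap and all values are small, but a weak pairing is not excluded. The numbers were not read as pairs in the main fit. With the replicate block, 3941, 5728 and 994 genes were called at 5 against 0, 10 against 0 and 10 against 5 μM and 403 against the midpoint, with 2 receptors at 10 against 5 μM, where Il7r had an adjusted p of 0.053, and the block changed no other call of the 4 genes. Depth limits S1pr1 and Il7r most, with 160 to 368 and 147 to 289 counts per library. The counts of called genes in the lists without both libraries were added after seeing the data.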
